A study of Mus musculus with 10 samples.

Results

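The 10 genes described here, Irs1, Rhbdd1, Mff, Agfg1, Pid1, Dner, Trip12, Fbxo36, Cab39 and Itm2c, are named neighbours of the collagen genes Col4a3 and Col4a4 on mouse chromosome 1. They were chosen by name and position and not by a rule on measured values, although earlier results of these data were known. They are 10 of the 22053 genes in the deposited expression table. All 10 were present in the table, and 9 of them passed the filter on low values and entered the tests, while Dner did not. RNA-seq was done on kidney glomeruli, the filtering tufts of the kidney, in 5 libraries of Col4a3 wild-type mice and 5 libraries of mice with the missense change p.G799R in Col4a3. The sources used here do not give zygosity, age, sex or strain, how the mutation was made or how glomeruli were isolated. Whether each library is a separate mouse is also not stated, and the p-values therefore cover only variation between libraries, which may be technical. The series title names tauroursodeoxycholic acid, a bile acid. The titles of the 10 libraries do not name it, and no library labelled as treated with it was analysed here. The question put to these genes is whether the changed locus carries differences in the expression of genes linked to it.

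Col4a3 and Col4a4 encode chains of type IV collagen that assemble with the Col4a5 chain into the network of the glomerular basement membrane, which podocytes make. In the genome the pair lies head to head and is transcribed in opposite directions from a shared stretch of promoter. Genes near an altered locus can differ between groups of mice because they are inherited together with it. In tissue of mixed cells they can also differ because the share of the cells that express them differs.

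The stretch between the pair and the starts of Trip12 and Fbxo36 are shown because both are head to head promoters, one at the altered locus and one among its neighbours. All come from the RefSeq promoter table of build GRCm38.p6 and are written 5′ to 3′. In the first, from the plus strand of chr1:82586820-82586950, capitals mark the 71 bases between the GENCODE M21 starts of Col4a4 and Col4a3. In the others, which run from 250 bases before to 30 bases after the RefSeq start, capitals mark CpG dinucleotides. Trip12 is read from the minus strand at chr1:84839275-84839554 and Fbxo36 from the plus strand at chr1:84839591-84839870.
Col4a4 to Col4a3: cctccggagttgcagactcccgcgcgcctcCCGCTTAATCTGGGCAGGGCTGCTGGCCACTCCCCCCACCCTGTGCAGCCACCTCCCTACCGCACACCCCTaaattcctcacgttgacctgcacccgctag
Trip12: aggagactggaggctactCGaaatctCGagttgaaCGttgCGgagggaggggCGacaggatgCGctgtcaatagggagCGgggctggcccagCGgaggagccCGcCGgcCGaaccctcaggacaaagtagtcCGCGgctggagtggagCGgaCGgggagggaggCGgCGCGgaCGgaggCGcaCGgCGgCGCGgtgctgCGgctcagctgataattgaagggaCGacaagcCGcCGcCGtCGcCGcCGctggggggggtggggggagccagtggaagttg
Fbxo36: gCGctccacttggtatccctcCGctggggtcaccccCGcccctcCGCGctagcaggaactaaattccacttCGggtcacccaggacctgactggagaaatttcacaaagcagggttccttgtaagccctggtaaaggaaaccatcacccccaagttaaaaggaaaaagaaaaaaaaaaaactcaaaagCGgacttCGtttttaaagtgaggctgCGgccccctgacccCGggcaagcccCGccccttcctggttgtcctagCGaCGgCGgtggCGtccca
The Trip12 stretch held 32 CpG dinucleotides at 69.6% GC and the Fbxo36 stretch 15 at 56.1% GC. Between the RefSeq starts of these genes lie 536 bases. Over the 32851 promoters of the table, windows of 300 bases had a median of 7 CpG dinucleotides, and 11 of the 12 windows of the 10 neighbours stood above that median.

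The libraries of the groups differed across most of the genome, and this is the background for every count below. FPKM is a fragment count scaled for transcript length and library total. Differences are given as log2(FPKM + 1) of G799R minus wild type, with limma p-values adjusted over the 13117 tested genes and called under 0.05. By that rule 59.8% of tested genes were called, 40.5% higher and 19.3% lower in G799R, and the median log2 difference of all tested genes was 0.17. Tubule cells lie around the glomeruli, and their markers were lower: all 30 proximal tubule markers and 27 of 28 tested distal markers fell, and 2 distal markers were not tested. The mean of the 60 tubule markers was 5.54 to 6.23 on the log2 scale in wild type and 3.26 to 4.04 in G799R, a difference of −2.28 (exact two-sided permutation test, p = 0.00794, the smallest that 5 against 5 libraries allow), and they held 3.43% to 5.60% and 0.499% to 1.02% of all FPKM. All 28 podocyte markers, 20 of 24 endothelial and 11 of 18 mesangial markers rose, and the mean of these 70 markers ran from 5.81 to 6.39 in wild type and 6.68 to 6.84 in G799R. No marker of these lists was at 0 in all libraries. Of 31 interferon response genes 31 rose, most in G799R libraries 3 and 4, where their mean was 7.07 and 6.62. In bulk tissue fewer cells of a type and less RNA per cell cannot be told apart. Because of these shifts each value was also computed with the glomerular markers set equal in every library, here called glomerular scaling, under which the median of all tested genes was −0.41.

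As deposited, 7 of the 9 tested neighbours were higher in G799R, 1 was lower and 1 was not called, beside 40.5% higher and 19.3% lower among all tested genes. The 7 were Irs1, Rhbdd1, Agfg1, Pid1, Trip12, Cab39 and Itm2c, the lower one was Fbxo36, and Mff was the one not called. Their median log2 difference was 0.30, beside 0.17 for all tested genes. The groups did not overlap for 5 neighbours that stood above (Rhbdd1, Agfg1, Trip12, Cab39 and Itm2c) and for Fbxo36, which stood below. Groups did not overlap for 41.8% of all tested genes, 26.1% with G799R above and 15.7% with it below. Under glomerular scaling 0 neighbours were called higher and 6 lower (Rhbdd1, Mff, Agfg1, Trip12, Fbxo36 and Cab39), with a median of −0.35 for the 9. Of all tested genes 68.1% were called under that scaling, 4.24% higher and 63.9% lower. Under median-of-ratios scaling, which sets the typical gene equal between libraries, 3 neighbours were higher (Rhbdd1, Pid1 and Itm2c), beside 23.3% of all tested genes, and Fbxo36 was lower, beside 25.5%. Under quantile normalisation 6 were higher, beside 35.5%, and 1 lower, beside 20.8%, with Trip12 not called (0.14; limma adjusted p = 0.0501). Without G799R libraries 3 and 4 the counts were 7 higher, beside 37.1%, and 1 lower, beside 17.2%.

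**Figure D1:**
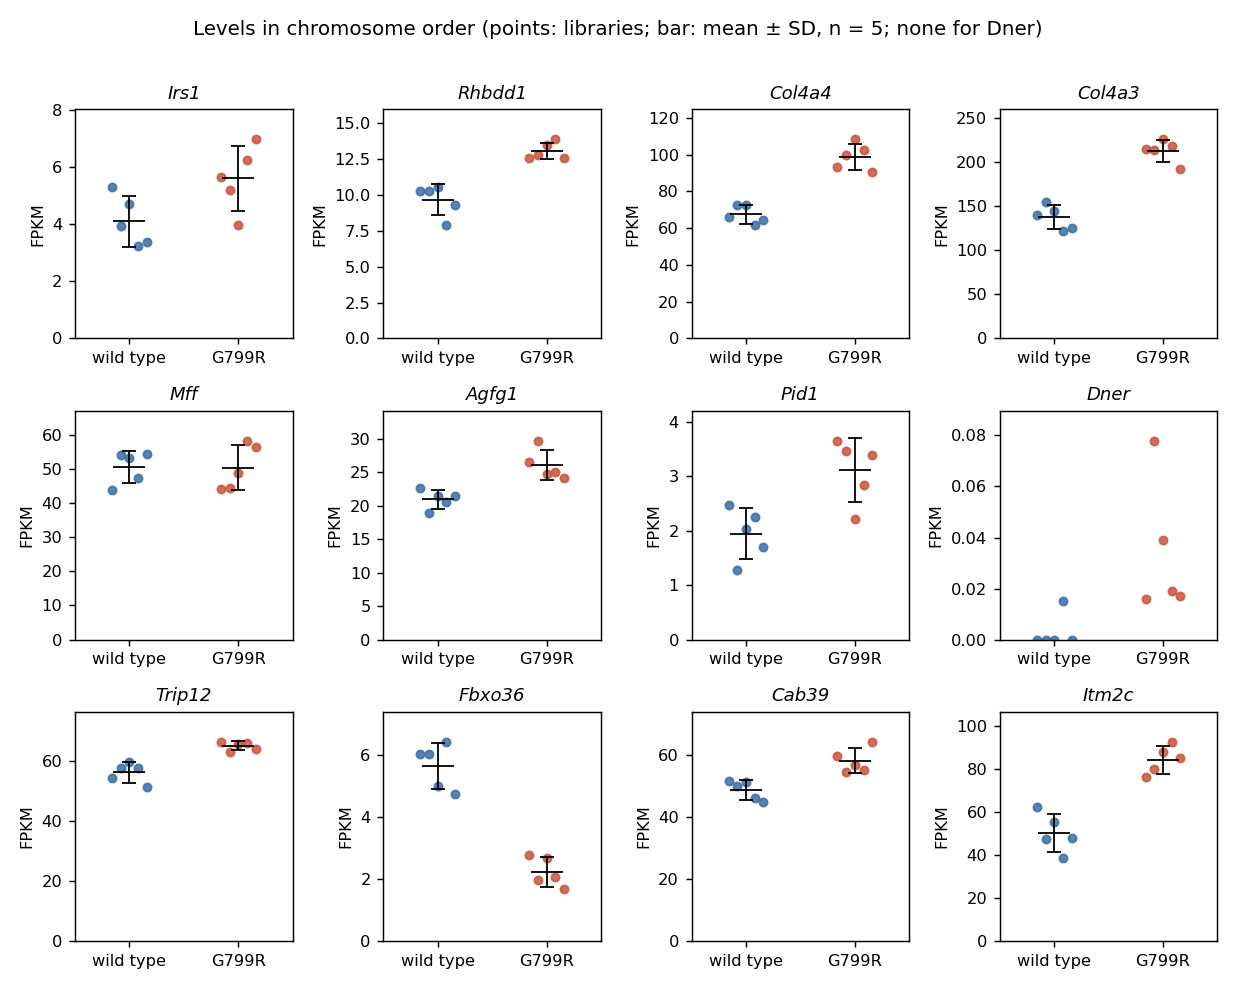
FPKM of the 10 neighbours, Col4a3 and Col4a4 in each of the 10 libraries, 1 point per library, with bars for mean and SD of each group of 5 except for Dner. Fbxo36 lies lower in every G799R library, Mff overlaps between the groups, and Dner is near 0.

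The collagen pair itself was higher in G799R as deposited. Col4a3 (ENSMUSG00000079465, chromosome 1, 82586921 to 82722059, build GRCm38, plus strand) stood at 140, 155, 145, 123 and 125 FPKM in wild-type libraries 1 to 5 and at 215, 214, 226, 218 and 193 FPKM in G799R libraries 1 to 5. No wild-type library reached the lowest G799R library. The means were 138 ± 13.6 and 213 ± 12.4 FPKM (SD, n = 5 each), a log2 difference of 0.63 ± 0.08 (SE; limma adjusted p = 6.24e-05). Col4a4 (minus strand, 82448423 to 82586849) went from 67.5 ± 5.12 to 98.8 ± 7.15 FPKM, at a log2 difference of 0.54 (limma adjusted p = 9.01e-05). A missense change need not alter the mRNA level, so these levels do not check the labels. Under glomerular scaling the differences of Col4a3 and Col4a4 were −0.04 and −0.12, and neither was called (limma adjusted p = 0.744 and 0.298). Relative to Col4a3 in the same library, Col4a4 differed by −0.09 (95% interval −0.26 to 0.09; limma adjusted p = 0.343).

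Among the neighbours that act in signalling, Irs1 encodes a docking protein of the insulin and insulin-like growth factor receptors. Irs1 (ENSMUSG00000055980, minus strand, 82233101 to 82291416) lies 157 kb on the centromere side of Col4a4. It was at 5.32, 3.93, 4.72, 3.23 and 3.37 FPKM in the wild-type libraries and 5.67, 5.19, 3.97, 6.25 and 6.98 FPKM in the G799R libraries. The groups overlapped, with 3 G799R libraries above all of wild type. The log2 difference was 0.37 ± 0.15 (SE; limma adjusted p = 0.0488), and the call was lost without any 1 of 7 libraries, wild-type 2, 4 or 5 or G799R 1, 2, 4 or 5 (0.30 to 0.39; adjusted p = 0.0651 to 0.115). It was also lost with no filter on low values (adjusted p = 0.0755) and under median-of-ratios scaling (0.22; 0.173). Gm9747 overlaps Irs1 by 2822 bases on the opposite strand. Since strand-specific counting is not stated, reads in that stretch cannot be assigned to either gene alone.

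Pid1, whose product binds the receptor LRP1 through a phosphotyrosine interaction domain, lies 1314 kb on the telomere side (minus strand, 84036296 to 84364180). Its level was low, at 2.48, 1.27, 2.04, 2.26 and 1.70 FPKM in wild type and 3.66, 3.46, 2.21, 2.85 and 3.38 FPKM in G799R. In 4 G799R libraries it stood above all of wild type, and library 3 lay inside the wild-type range. The mean was 1.60-fold higher, and the log2 difference was 0.48 ± 0.14 (SE; limma adjusted p = 0.0120). Under glomerular scaling it was 0.01 (limma adjusted p = 0.964).

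Cab39 encodes MO25, the scaffold that holds the kinase LKB1 to its partner STRAD, and LKB1 in turn activates the energy sensor AMPK. Cab39 (plus strand, 85793441 to 85851576) was at 51.7, 49.9, 51.3, 46.0 and 44.7 FPKM in wild type and 59.8, 54.5, 56.7, 55.1 and 64.2 FPKM in G799R. The groups did not overlap, at 48.7 ± 3.17 against 58.0 ± 4.01 FPKM (SD, n = 5), and the log2 difference was 0.25 ± 0.07 (SE; limma adjusted p = 0.00798). The direction depended on scaling, at 0.07 under median-of-ratios scaling (limma adjusted p = 0.324) and −0.42 under glomerular scaling (limma adjusted p = 0.00372).

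Of the neighbours in membranes and organelles, Rhbdd1 is a rhomboid protease of the endoplasmic reticulum that takes part in the degradation of misfolded membrane proteins. Rhbdd1 (ENSMUSG00000026142, plus strand, 82316452 to 82445366) ends 3.06 kb from Col4a4. It was at 10.3, 10.3, 10.6, 7.90 and 9.33 FPKM in wild type and 12.6, 12.8, 13.5, 13.9 and 12.6 FPKM in G799R, with no overlap between the groups. The log2 difference was 0.40 ± 0.08 (SE; limma adjusted p = 0.00145), the value was 0.24 under median-of-ratios scaling (limma adjusted p = 0.0195) and −0.21 under glomerular scaling (0.0410).

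Mff encodes the mitochondrial outer membrane protein that recruits the dynamin-like enzyme Drp1 for mitochondrial fission. Mff (ENSMUSG00000026150, plus strand, 82724890 to 82752394) starts 2.83 kb beyond the end of Col4a3. It was at 43.9, 54.0, 53.2, 47.3 and 54.4 FPKM in wild type and 44.2, 44.5, 48.8, 58.3 and 56.3 FPKM in G799R. The ranges overlapped almost entirely, with means of 50.5 ± 4.70 and 50.4 ± 6.59 FPKM (SD, n = 5). The log2 difference was −0.01 (95% interval −0.22 to 0.20; limma adjusted p = 0.946), beside 0.63 for Col4a3 next to it. Under glomerular scaling it was −0.67 (limma adjusted p = 9.19e-04).

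Agfg1 and Itm2c complete the membrane group. Agfg1, an endocytic adaptor with an Arf GTPase-activating domain (plus strand, 82839483 to 82901182, 117 kb from Col4a3), was at 22.7, 18.9, 21.4, 20.5 and 21.6 FPKM in wild type and 26.6, 29.8, 24.8, 24.99 and 24.2 FPKM in G799R. No G799R library fell to the wild-type range, and the log2 difference was 0.30 ± 0.07 (SE; limma adjusted p = 0.00451). Under glomerular scaling Agfg1 was at −0.35 (limma adjusted p = 0.0120). Itm2c, also called BRI3, encodes a transmembrane protein that binds the amyloid precursor protein (plus strand, 85894281 to 85908675, 3172 kb from Col4a3). It was at 62.4, 47.2, 55.0, 38.7 and 47.6 FPKM in wild type and 76.1, 79.8, 87.7, 92.5 and 84.8 FPKM in G799R. The groups stood well apart, with the log2 difference at 0.75 ± 0.11 (SE; limma adjusted p = 2.21e-04), the largest rise among the neighbours as deposited, and it was 0.57 under median-of-ratios scaling (limma adjusted p = 5.60e-04) and 0.08 under glomerular scaling (0.303).

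Dner, a neuronal membrane protein with EGF-like repeats that acts on Notch receptors, was listed at 0 in wild-type libraries 1, 2, 3 and 5 and at 0.015 FPKM in library 4. In G799R libraries 1 to 5 it was listed at 0.016, 0.078, 0.039, 0.019 and 0.017 FPKM. It lies on the minus strand at 84369839 to 84696221. These values are too low to compare, and it was not tested.

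The remaining neighbours both act in ubiquitin ligase reactions and sit head to head. Trip12 encodes a HECT-type ubiquitin ligase (ENSMUSG00000026219, minus strand, 84721189 to 84840516). It was at 54.3, 57.8, 59.8, 57.9 and 51.4 FPKM in wild type and 66.5, 63.0, 65.9, 66.0 and 64.1 FPKM in G799R, so that no G799R library reached down to wild type. The log2 difference was 0.21 ± 0.06 (SE; limma adjusted p = 0.00768), beside 0.17 for the median gene, and it was not called under median-of-ratios scaling (0.03; limma adjusted p = 0.696). Under glomerular scaling it was −0.45 (limma adjusted p = 0.00450).

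Fbxo36 encodes an F-box protein, the type of subunit that selects substrates for SCF ubiquitin ligases, and was the single neighbour that fell. Fbxo36 (ENSMUSG00000073633, plus strand, 84839841 to 84900487, 2118 kb from Col4a3) was at 6.04, 6.02, 5.002, 6.42 and 4.73 FPKM in wild type and 2.76, 1.95, 2.68, 2.05 and 1.66 FPKM in G799R. Every G799R library was below every wild-type library. The mean was 2.54-fold lower, and the log2 difference was −1.05 ± 0.12 (SE; limma adjusted p = 3.30e-05). It stayed lower under glomerular scaling, at −1.56 (limma adjusted p = 6.85e-06), and under median-of-ratios scaling, at −1.19 (2.86e-05). Tubule markers fell in the same libraries, and their part in the difference of Fbxo36 was not tested.

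The annotated genes Trip12 and Fbxo36 overlap by 676 bases on opposite strands, so reads in that stretch cannot be assigned to one of them without strand. In a comparison added after the data were seen, log2(FPKM + 1) of Fbxo36 minus that of Trip12 averaged −3.11 ± 0.155 over the wild-type and −4.37 ± 0.192 over the G799R libraries (SD, n = 5). The difference of −1.26 ± 0.12 (SE) restates the separate differences of Fbxo36 and Trip12 on 1 scale. The direction of Trip12 itself depended on scaling, and under glomerular scaling both genes fell.

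**Figure D2:**
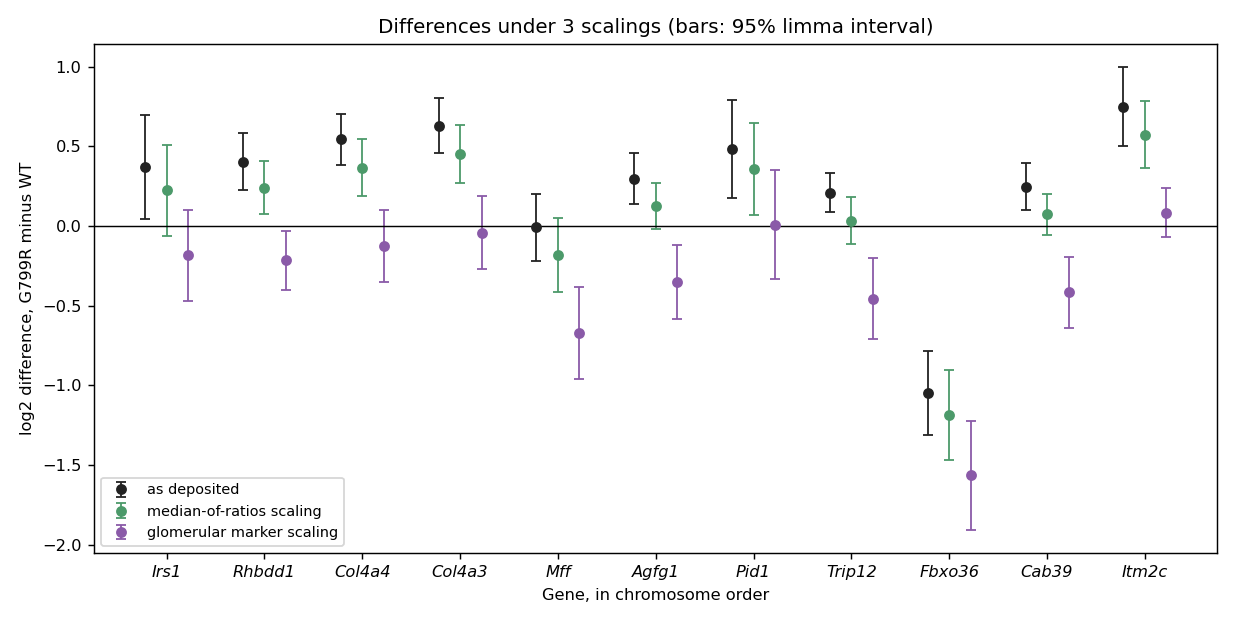
Log2 difference of each tested neighbour, Col4a3 and Col4a4 with 95% intervals, as deposited, under median-of-ratios scaling and under glomerular scaling. Most neighbours lie above 0 as deposited and below 0 under glomerular scaling, while Fbxo36 lies below 0 under all 3.

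Measured against Col4a3 in the same library, 6 of the 9 neighbours fell and 0 rose. These were Rhbdd1, Mff, Agfg1, Trip12, Fbxo36 and Cab39, at log2 differences of −0.23, −0.64, −0.33, −0.42, −1.68 and −0.38. The ratio takes out most of the library scaling of high genes, but the added 1 of log2(FPKM + 1) leaves some of it in low genes such as Pid1, Irs1 and Fbxo36. By this ratio 67.2% of all tested genes were lower and 2.79% higher, so the neighbours' share was near the background. Mff went from −1.43 ± 0.171 to −2.07 ± 0.228 on the log2 scale relative to Col4a3 (SD, n = 5; limma adjusted p = 4.77e-04). Rhbdd1 was close to the threshold (limma adjusted p = 0.0398), and its call was lost without any 1 of 7 libraries (wild-type 1, 3 or 5 or G799R 1, 2, 3 or 4) at adjusted p = 0.0620 to 0.0900, and also against the mean of Col4a3 and Col4a4 (−0.18; limma adjusted p = 0.0812). Without G799R libraries 3 and 4 the calls of Rhbdd1 (adjusted p = 0.115) and Agfg1 (0.122) were lost by limma. Irs1, Pid1 and Itm2c were not called, at −0.26 (95% interval −0.61 to 0.09), −0.15 (−0.53 to 0.24) and 0.12 (−0.13 to 0.36), and Irs1 was called without G799R library 5 (−0.37; limma adjusted p = 0.0429).

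**Figure D3:**
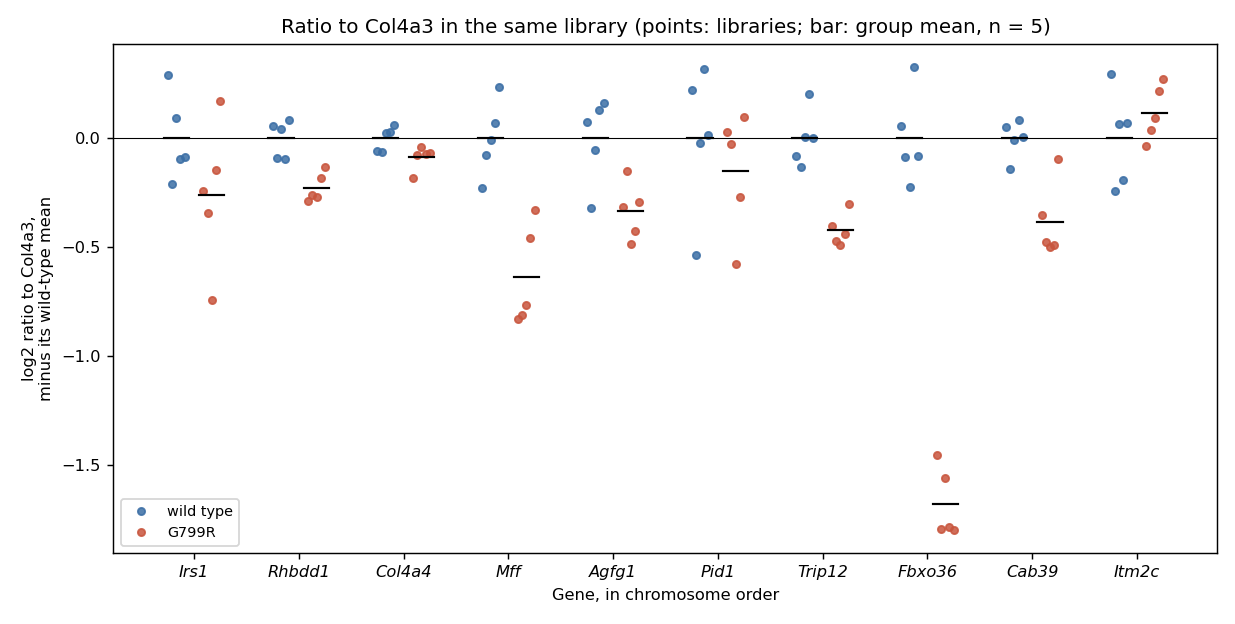
Log2 of each neighbour relative to Col4a3 in each of the 10 libraries, 1 point per library, with the wild-type mean of each gene set to 0 and bars for the means of each group of 5. Fbxo36, Mff, Trip12 and, narrowly, Rhbdd1 stand below all wild-type libraries in every G799R library, and Itm2c overlaps between groups.

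In FPKM, which is a level per length, the order of the neighbours in wild type was Trip12 (56.2), Mff (50.5), Itm2c (50.2), Cab39 (48.7), Agfg1 (21.003), Rhbdd1 (9.67), Fbxo36 (5.64), Irs1 (4.11), Pid1 (1.95) and Dner. Neighbouring ranges overlapped among the first 4 and between Fbxo36 and Irs1. In G799R Itm2c was highest at 84.2 FPKM and apart from Trip12 at 65.1, and Fbxo36 was below Pid1 in the mean, at 2.22 against 3.11 FPKM with overlapping ranges. Across the 10 libraries the gene most like Fbxo36 was Cyp4b1, a cytochrome P450 gene (Pearson r = 0.993), and the one most like Itm2c was Cuedc1 (r = 0.993). The gene most like Mff was Zfp772 (r = 0.923). For the other neighbours the highest correlation was 0.954 to 0.987. No top match lay on chromosome 1, but that chromosome held only 748 of the 13117 tested genes, so this is no test of linkage. These values describe 10 libraries that share the group difference and library composition.

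The wider stretch of chromosome 1 was examined in the same way. Within 5 Mb of the pair 90 genes were in the table and 47 were tested. Of these 22 (46.8%) rose and 11 (23.4%) fell, and their median log2 difference was 0.16, beside 40.5% and 19.3% of all tested genes. Leaving out the neighbours and the collagen pair, 36 were tested, 13 higher and 10 lower, and the median was 0.06. Within 2 Mb, 9 of 11 tested genes were higher, the pair and 5 of the neighbours among them, and 1 was lower. Under glomerular scaling 0 of these 11 were higher and 5 lower, beside 4.24% and 63.9% of all tested genes. Under median-of-ratios scaling 6 were higher and 1 lower, beside 23.3% and 25.5%. By distance, the median was 0.39 within 1 Mb (8 tested, Col4a3 and Col4a4 themselves among them) and 0.48 from 1 to 2 Mb (3 tested). It was 0.06 from 2 to 5 Mb (36 tested) and 0.05 from 5 to 10 Mb (81 tested), beside 0.17 for all tested genes. The first 2 bins hold under 20 genes. Under glomerular scaling the 4 medians were −0.20, 0.0087, −0.54 and −0.52, beside −0.41 for all tested genes. On the centromere side of the 5 Mb 5 of 16 tested genes were higher and 5 lower, and on the telomere side 15 of 29 were higher and 6 lower. Under glomerular scaling the 47 had 6 higher (12.8%) and 28 lower (59.6%), beside 4.24% and 63.9% of all tested genes. Under median-of-ratios scaling they had 17 higher and 17 lower (36.2% each), beside 23.3% and 25.5%. Groups did not overlap for 61.7% of the 47, beside 41.8% of all tested genes. The cause was not tested. Chromosome 1 had 64.4% of tested genes called, and the other 19 chromosomes 55.6% to 64.2%.

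**Figure D4:**
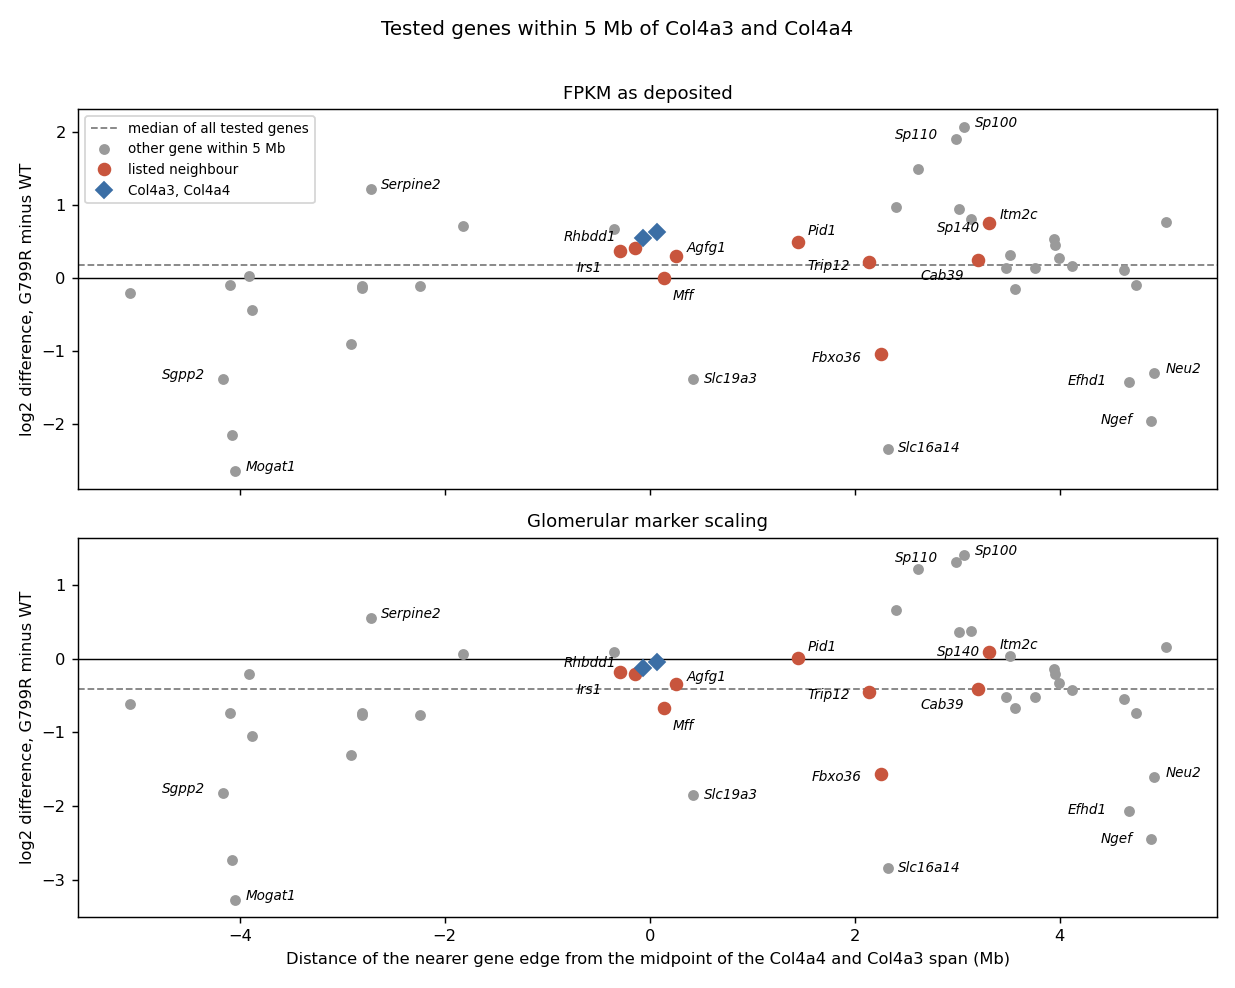
Log2 difference of each tested gene within 5 Mb by distance from the midpoint of the collagen pair in Mb, as deposited (upper panel) and under glomerular scaling (lower panel). Red points are the neighbours, blue diamonds the collagen pair, grey points other genes and the dashed line the median of all tested genes. Genes of either sign lie on both sides of the pair.

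Several genes that are not neighbours by name but lie in the stretch fell further than Fbxo36. Apart from BC035947, the genes named here were picked for the smallest p among the other tested genes within 5 Mb. Their p-values are therefore no independent support. Slc19a3, a thiamine transporter gene 290 kb from Col4a3, was 3.97-fold lower, and Slc16a14, of the monocarboxylate transporter family and 2184 kb away beside Fbxo36, 7.77-fold lower. Slc16a14 was at 12.3, 13.2, 7.62, 14.3 and 11.3 FPKM in wild type and 2.18, 1.43, 1.80, 1.38 and 0.759 FPKM in G799R, with no overlap. Its log2 difference was −2.34 ± 0.18 (SE; limma adjusted p = 2.89e-06). Mogat1, a monoacylglycerol acyltransferase, was 7.11-fold lower and Ngef was 5.60-fold lower. Mogat1 overlaps BC035947 by 1168 bases, Neu2 overlaps Ngef by 63982 bases and Sgpp2 overlaps Farsb by 2315 bases, each on opposite strands, so the values of these genes are uncertain. BC035947 was 5.25-fold lower in the same libraries. Neu2, a sialidase, was 7.67-fold lower, and Sgpp2, a sphingosine phosphate phosphatase, 4.17-fold lower. Efhd1, a mitochondrial calcium-binding protein, was 2.82-fold lower. Tubule markers moved the same way in these libraries, and their part in these falls was not tested. Serpine2, a secreted protease inhibitor, rose from 265 ± 64.0 to 608 ± 79.3 FPKM (SD, n = 5), a log2 difference of 1.22, and of 0.55 under glomerular scaling (limma adjusted p = 0.00264).

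On the log2(FPKM + 1) scale the largest 2 rises in the stretch were Sp100 and Sp110, which with Sp140 encode interferon-induced proteins of nuclear bodies. Their group lies between Slc16a14 and Cab39. Sp100 (85649988 to 85709998) was at 42.9, 27.1, 32.9, 25.5 and 40.7 FPKM in wild type and 116, 120, 247, 255 and 66.4 FPKM in G799R. G799R libraries 3 and 4 stood highest and library 5 lowest of that group, as in the interferon score, and no wild-type library reached library 5. The log2 differences of Sp100, Sp110 and Sp140 were 2.07 ± 0.33, 1.90 ± 0.28 and 0.95 ± 0.16 (SE), with limma adjusted p-values of 3.39e-04, 1.93e-04 and 5.33e-04. Without G799R libraries 3 and 4 they were 1.53, 1.42 and 0.75, all still called, and under glomerular scaling 1.41, 1.3045 and 0.36, also called. Sp110 also overlaps G530012D18Rik by 397 bases on the opposite strand. These genes are close paralogs, so reads shared between them make single values uncertain.

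**Figure D5:**
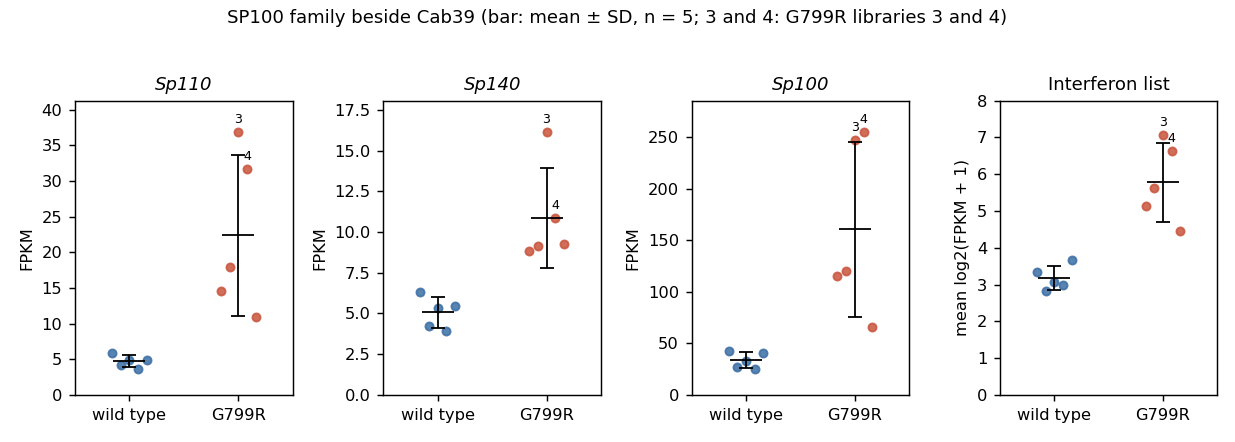
FPKM of Sp100, Sp110 and Sp140 and the mean log2(FPKM + 1) of the interferon list in each of the 10 libraries, 1 point per library, with bars for mean and SD (n = 5). The G799R libraries vary widely, with libraries 3 and 4 highest for Sp100 and Sp110.

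Genes that work with the neighbours were followed in lists. For insulin signalling, with Irs1, 7 of 23 tested genes rose and 6 fell: the adaptor gene Shc1 was 1.59-fold higher and the insulin receptor gene Insr 2.09-fold lower. For mitochondrial fission and fusion, with Mff, 2 of 12 rose and 6 fell, among them the fission regulator gene Mtfr1 (1.99-fold lower) and the fusion gene Opa1 (1.45-fold lower). For LKB1 and AMPK, with Cab39, 9 of 17 rose and 5 fell, with the AMPK catalytic subunit genes Prkaa1 1.36-fold higher and Prkaa2 2.199-fold lower. For ubiquitin ligases, with Trip12 and Fbxo36, 7 of 18 rose and 4 fell, with Nedd4l 1.83-fold lower and Smurf1 1.45-fold higher. These counts stand beside 40.5% higher and 19.3% lower among all tested genes.

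For the rhomboid family, 4 of 12 rose and 1 fell, led by Rhbdf2 at 1.84-fold. For the Notch pathway, to which Dner belongs, 9 of 15 rose and 0 fell, with the receptor gene Notch3 1.72-fold and the ligand gene Dll1 1.67-fold higher. For the list of relatives and partners of Itm2c and Pid1, here called the amyloid precursor list, 8 of 11 rose and 0 fell. In it Ncstn, a subunit of gamma-secretase, was 1.66-fold and Lrp1 2.07-fold higher. For the endocytic adaptors, with Agfg1, 7 of 11 rose and 3 fell, with its paralog Agfg2 1.75-fold lower and Dab2 1.73-fold lower. Of all tested genes 40.5% were higher and 19.3% lower. The median log2 differences of all 8 lists ran from −0.21 (mitochondrial fission) to 0.48 (Notch and amyloid precursor), beside 0.17 for all tested genes. Under glomerular scaling Notch had 1 higher and 4 lower, the amyloid precursor list 1 higher and 2 lower, and the insulin, mitochondrial, AMPK, ligase, rhomboid and endocytic lists 0 higher and 18, 12, 15, 17, 10 and 10 lower. Under that scaling 4.24% of all tested genes were higher and 63.9% lower. Under median-of-ratios scaling the AMPK list had 3 higher and 5 lower, the ligase list 1 and 5 and the endocytic list 3 and 3. The insulin list had 5 and 9, the mitochondrial list 0 and 7 and the rhomboid list 3 and 3. The Notch list kept 8 of 15 higher and 0 lower, and the amyloid precursor list 8 of 11 higher and 0 lower. The shares of all tested genes were then 23.3% higher and 25.5% lower. Without G799R libraries 3 and 4 the AMPK list had 8 higher and 3 lower and the rhomboid list 4 and 0, beside 37.1% and 17.2% of all tested genes. With tubule and glomerular markers moving in the same libraries, their part in these counts was not tested.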

How the data were processed

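The authors deposited FPKM values for 22053 Ensembl genes in 10 glomerular libraries. TRIzol extraction and a NEBNext Ultra kit are given in the labels' protocols. The submitters' processing notes name RSEM, StringTie 1.3.1, HISAT2, Bowtie2 2.2.8 and fastp 0.18.0 with no role or order. The sources used here do not give the genome build, the annotation or whether counting used strand. Positions came from GENCODE M21 (GRCm38), looked up by identifier, and were missing for 90 genes; promoter sequences came from RefSeq (GRCm38.p6). FPKM sums ran from 320720 to 340875, relative depth from 0.860 to 1.19 of wild-type library 1, and absolute depth is unknown, so no counting interval was computed.

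Values were used as log2(FPKM + 1), which understates changes of low genes, and limma-trend (R 4.3.3, limma 3.58.1; two-sided) was run on the 13117 genes whose mean reached 0.5 FPKM, with Benjamini-Hochberg adjustment over all of them. Folds are ratios of mean FPKM. Scores are means over marker genes, compared by an exact permutation test over 252 splits. Ratios to Col4a3 were tested in the same way over 13116 genes. The model was tested on simulated data in which few genes changed, so that test does not cover a shift across most genes as seen here. The rule for named genes took the neighbours, the collagen pair and up to 4 tested genes of each list with the smallest p. It also took up to 10 further tested genes within 5 Mb with the smallest p and up to 2 most correlated genes per neighbour. Predicted names were left out. The genes described and the lists were chosen with earlier results of these data known. Alternatives were no filter, a minimum mean of 2 FPKM, pseudocounts of 0.1 or 0.5, median-of-ratios, quantile and glomerular scaling, robust limma without trend, a replicate block, windows of 2 and 10 Mb, the ratio to the mean of the collagen pair and leaving out each library; leaving out G799R libraries 3 and 4 and the ratio of Fbxo36 to Trip12 were added after seeing the data.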

Additional observations from a re-analysis of the deposited data

Results flagged for a closer look

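The Sgpp2 level of G799R library 4, at 0.341 FPKM, lay far below the other G799R libraries, which were at 1.06 to 1.29 FPKM. The Sp140 level of G799R library 3, at 16.1 FPKM, lay far above the others, at 8.81 to 10.9 FPKM. Both gaps to the nearest library were over 0.71 of the group's range. These were 2 of 45 groups of libraries examined, where chance gives about 1 in 20.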

How the results depend on the processing

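Under glomerular scaling the calls across all genes were 556 higher and 8378 lower, the neighbours 0 higher and 6 lower, and the genes within 5 Mb 6 higher and 28 lower. Col4a3 and Col4a4 then stood at −0.041 and −0.12, and Irs1, Rhbdd1, Agfg1, Trip12 and Cab39 at −0.18, −0.21, −0.35, −0.45 and −0.42; this scaling sets the common rise of glomerular markers to 0 by construction. Under median-of-ratios scaling 3057 of all tested genes (23.3%) were higher and 3341 (25.5%) lower, with 3 neighbours higher and 1 lower. Of the 47 tested genes within 5 Mb 17 were then higher and 17 lower, 36.2% each. The cause was not tested. As deposited, 9 of the 11 tested genes within 2 Mb (81.8%) were higher and 1 (9.09%) lower, the collagen pair included. Within 10 Mb 47 of 128 (36.7%) were higher and 35 (27.3%) lower, beside 40.5% and 19.3% of all tested genes. The replicate numbers did not pair the libraries: deviations of same-numbered libraries correlated at −0.08 to 0.05, and 0 of 10 libraries correlated best with their own number. With the replicate block 4937 genes were higher and 2451 lower, with 6 neighbours higher and 1 lower, 20 and 11 genes within 5 Mb, Col4a3 and Col4a4 at 0.63 and 0.54, and 0 and 5 neighbours higher and lower relative to Col4a3; the calls of Irs1 (adjusted p = 0.0975) and of Rhbdd1 relative to Col4a3 (0.0549) were lost. Leaving out each library in turn gave 4614 to 5580 genes higher and 2396 to 2585 lower, 6 to 7 neighbours higher and 1 lower, 20 to 23 and 11 to 12 genes within 5 Mb, and 5 to 7 neighbours lower relative to Col4a3. The tubule score difference ran from −2.38 to −2.17 and the glomerular one from 0.58 to 0.72. Absolute depth is unknown, which limits the low genes Dner, Pid1 and Irs1.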

Other observations

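Macrophage markers, which the tuft can also hold, were higher in 12 of 20 tested genes and lower in 0, beside 40.5% and 19.3% of all tested genes. Their median log2 difference was 0.91, and Ctss, a lysosomal protease, was 3.29-fold higher. Of the 6 tested lymphocyte markers 1 was higher and 1 lower. Aif1, a macrophage gene on chromosome 17, was the gene most like Agfg1 across the 10 libraries (Pearson r = 0.966), at 0.516 FPKM in wild type and 1.996 FPKM in G799R. Eaf1, on chromosome 14, was as close to Agfg1 (r = 0.966), and a link of Agfg1 to macrophages was not tested.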
